A study of Mus musculus with 12 samples.

Results

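Septins are GTP-binding proteins of the cytoskeleton, and 10 of their genes, Sept2 to Sept11, were followed in the cortex of young mice among 23354 gene symbols in all. They were found by symbol, each with a single row. The expression table writes them as spreadsheet dates: 2-Sep stands for Sept2, 3-Sep for Sept3, 4-Sep for Sept4, 5-Sep for Sept5, 6-Sep for Sept6, 7-Sep for Sept7, 8-Sep for Sept8, 9-Sep for Sept9, 10-Sep for Sept10 and 11-Sep for Sept11. The selenoprotein gene 15-Sep was left out because it is no septin. All 10 passed the filter on low values, which asked for an average of 0.5 FPKM or more. FPKM are fragments scaled by transcript length and by the mapped fragments of the library, so levels can be compared between genes. RNA-seq was done on cortices of 12 C57BL/6 mice taken on postnatal day 16, with 3 mice in each of 4 groups. The Dnmt1 conditional knockout (CKO) mice were Olig1cre/+;Dnmt1flox/flox and their littermate controls Olig1+/+;Dnmt1flox/flox, while the Dnmt3a CKO mice were Olig1cre/+;Dnmt3aflox/flox and their controls Olig1+/+;Dnmt3aflox/flox. Every mouse therefore carried floxed alleles, and every CKO mouse also carried a cre allele at Olig1. Cre driven by Olig1 acts in the oligodendrocyte lineage, whereas the libraries were made from whole cortex.

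Septin proteins polymerise into rods and filaments that scaffold membranes and take part in cell division, and a rod joins members of different subgroups, Sept7 among them. The Sept2 subgroup holds Sept2, Sept4 and Sept5, the Sept3 subgroup Sept3 and Sept9, the Sept6 subgroup Sept6, Sept8, Sept10 and Sept11, and Sept7 stands alone. In myelin of the central nervous system, filaments of Sept2, Sept4, Sept7 and Sept8, assembled with the help of anillin, line the innermost layer of the sheath and stabilise it. Sept3 and Sept5 are known from presynaptic terminals of neurons. Dnmt1 copies DNA methylation after replication and Dnmt3a sets it anew, mostly at cytosines followed by guanine (CpG).

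Sept4 and Sept2 were the septins called lower in Dnmt1 CKO mice at a false discovery rate (FDR) of 10%, with Sept2 close to the threshold. Stretches around their transcription starts are shown because CpG sites there are the letters on which both enzymes act. RefSeq windows of 250 bases before to 50 bases after a start (GRCm38.p6, the assembly also called mm10) were found for 7 of the 10 septins, and none for Sept3, Sept5 and Sept6. CpG sites are in capitals, and all 4 windows lie on the plus strand.
Sept4, chr11:87566439-87566738: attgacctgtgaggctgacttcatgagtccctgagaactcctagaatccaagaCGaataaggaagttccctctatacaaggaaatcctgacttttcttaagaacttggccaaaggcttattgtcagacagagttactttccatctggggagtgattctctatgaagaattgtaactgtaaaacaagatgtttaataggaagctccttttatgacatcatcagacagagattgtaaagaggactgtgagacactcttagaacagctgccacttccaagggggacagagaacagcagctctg
Sept4, chr11:87578139-87578438: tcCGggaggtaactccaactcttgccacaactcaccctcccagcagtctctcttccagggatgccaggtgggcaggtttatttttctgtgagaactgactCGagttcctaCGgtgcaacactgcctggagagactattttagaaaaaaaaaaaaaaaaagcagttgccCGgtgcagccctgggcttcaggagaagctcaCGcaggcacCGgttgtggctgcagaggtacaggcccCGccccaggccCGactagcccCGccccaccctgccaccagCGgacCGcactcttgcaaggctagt
Sept4, chr11:87580811-87581110: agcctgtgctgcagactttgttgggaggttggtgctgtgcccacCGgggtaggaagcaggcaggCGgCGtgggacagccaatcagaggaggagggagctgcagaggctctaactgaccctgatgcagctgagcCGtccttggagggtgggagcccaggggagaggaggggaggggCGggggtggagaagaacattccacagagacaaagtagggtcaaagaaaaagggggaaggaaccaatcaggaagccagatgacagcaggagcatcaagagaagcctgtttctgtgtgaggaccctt
Sept2, chr1:93478743-93479042: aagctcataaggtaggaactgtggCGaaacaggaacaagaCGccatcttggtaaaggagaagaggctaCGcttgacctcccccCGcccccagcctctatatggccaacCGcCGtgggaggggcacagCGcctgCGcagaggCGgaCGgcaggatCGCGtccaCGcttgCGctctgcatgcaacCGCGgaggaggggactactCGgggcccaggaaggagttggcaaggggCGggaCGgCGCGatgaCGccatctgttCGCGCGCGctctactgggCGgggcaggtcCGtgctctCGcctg

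The 3 Sept4 windows held 1, 11 and 5 CpG sites, and a further Sept4 window overlapping the second held 13. The Sept2 window held 29, and another that overlaps it held 36. Over all 32851 windows the median was 7 CpG sites, with quartiles of 3 and 20, so the Sept2 starts were rich in CpG and the Sept4 starts spread around the median. Sept8, whose level did not pass the test anywhere, had windows with 18 and 38 sites, and Sept7 had windows with 14 and 43. The word ACAAAG, searched on both strands, occurred 2 times in the last Sept4 window (the window at chr11:87580811-87581110) and in 18.7% of all windows. It also occurred 1 time in the Sept7 window with 14 CpG sites. CAGCTG, its own reverse complement, occurred 1 time each in the first and last Sept4 windows and in the Sept11 window, and in 16.3% of all windows. TATAAA was in none of the septin windows and in 13.6% of all windows. Because the table gives a level per gene, which of the starts made the transcripts was not measured, and neither was methylation. The first Sept4 window lies upstream of the gene as GENCODE M21 annotates it and the others within it.

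Before the septins, the labels were checked. In the Dnmt1 line, Dnmt1 came to 10.2 ± 0.435 FPKM (SD, n = 3) without cre and 8.49 ± 1.06 FPKM with it, with no overlap, while the change did not pass limma's test (log2 difference −0.27, adjusted p = 0.29). In the Dnmt3a line it was also lower without overlap, at 9.94 ± 0.0980 and 9.58 ± 0.148 FPKM (limma, log2 difference −0.05, adjusted p = 0.76). Of all rows, 14.4% were lower without overlap in the Dnmt1 line and 5.43% in the Dnmt3a line. FPKM per gene do not show the floxed exons apart from the rest. Dnmt3a was at 13.6 to 15.4 FPKM in the Dnmt3a CKO libraries and at 31.1 and 28.7 FPKM in Dnmt3a control replicates 1 and 3, but only at 16.9 FPKM in the library labelled Dnmt3a control replicate 2, so the septin results of that line, and those of the myelin genes and anillin, are also given without it. Column sums lay between 342274 and 417856 FPKM, and steps between low values gave relative depths of 0.847 to 1. The neuron list summed to 2024 to 2207 FPKM and the astrocyte list to 862 to 1006 FPKM in all libraries. The choroid plexus list ran from 3.47 to 421 FPKM.

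The septins differed widely in level, and the 3 highest and the 2 lowest kept their order in all 12 libraries. Sept5, which binds the presynaptic fusion protein syntaxin, was highest, at 260 to 313 FPKM. Sept7, a subunit that rods of different make-up share, followed at 129 to 145 FPKM, and the neuronal Sept3 at 71.4 to 79.3 FPKM. Each of these was above the next in 12 of 12 libraries. Sept8 (33.5 to 40.6 FPKM) and Sept4 (20.1 to 42.2 FPKM) came next, and Sept8 was the higher in 9 of 12 libraries, so this pair had no fixed order. Nor had Sept11 (19.6 to 23.8 FPKM), Sept2 (16.8 to 22.1 FPKM) and Sept6 (18.2 to 20.9 FPKM). Sept11 was above Sept2 in 9 libraries and Sept2 above Sept6 in 8. Sept9, a subunit of the longer rods, was lower at 14.3 to 16.5 FPKM, and Sept10 was lowest at 1.48 to 2.26 FPKM. No septin was listed at 0 in any library. The 3 other septin rows of the table, Sept1, Sept12 and Sept14, had means of 0.266, 0.00512 and 0.00634 FPKM over the 12 libraries and did not pass the filter.

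**Figure D1:**
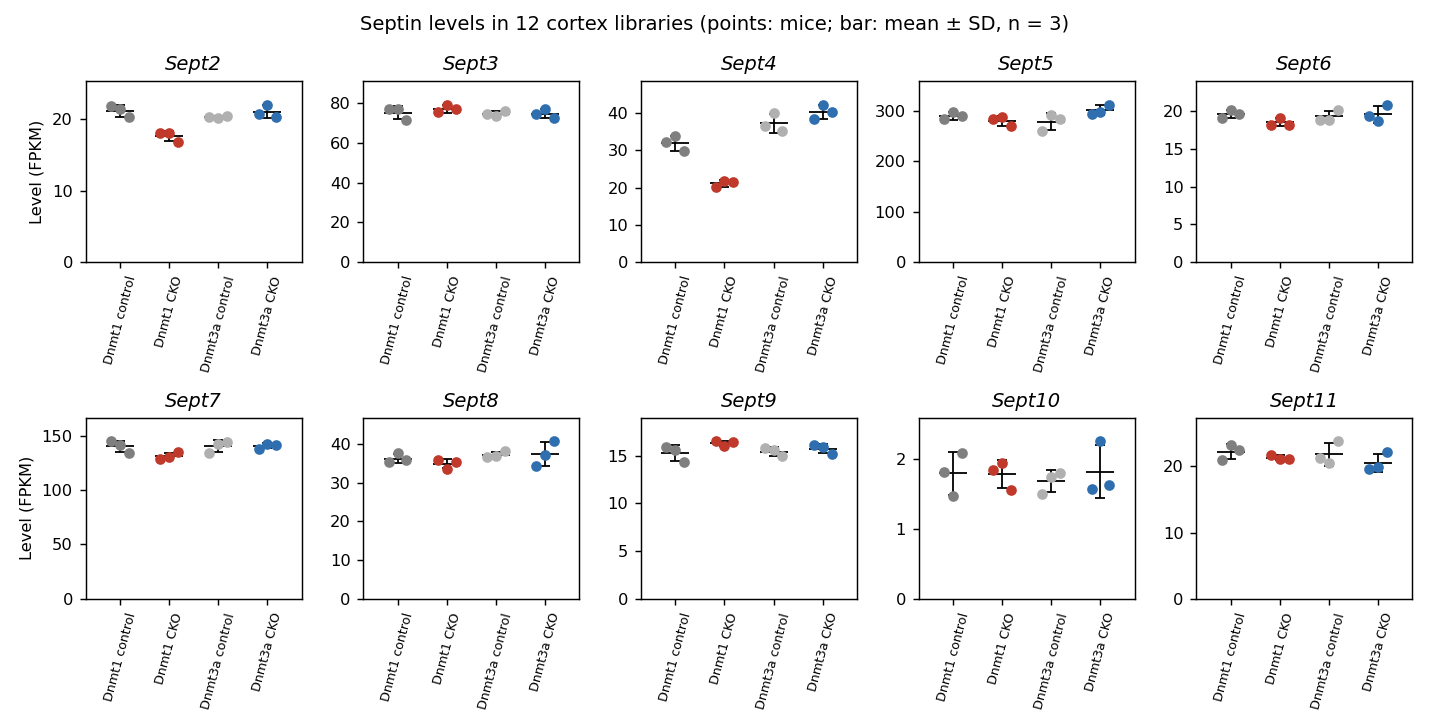
Level of each septin in FPKM (vertical axes, each from 0) in the 12 libraries. Points are mice and bars give the mean ± SD of 3 mice in the Dnmt1 control, Dnmt1 CKO, Dnmt3a control and Dnmt3a CKO groups. Sept4 sits at 20.1 to 21.9 FPKM in the Dnmt1 CKO mice and at 29.7 FPKM or more elsewhere, and Sept2 is below all its controls in the same mice.

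The largest part of the septin RNA was of the Sept2 subgroup. Summed over the 10 genes, FPKM came to 654 ± 15.5 (SD, n = 3) in Dnmt1 controls, 621 ± 8.83 in Dnmt1 CKO, 647 ± 24.2 in Dnmt3a controls and 674 ± 15.3 in Dnmt3a CKO mice. Sept5 alone gave 43.1% to 45.2% of the group sums. Its level is uncertain, because 80.4% of the 50-base words in its transcripts also occur in other annotated genes (GENCODE M21). These are Gp1bb and the gene model Gm49601. Gp1bb is a platelet receptor gene on the same strand, and its largest overlap of a single exon with Sept5 is 1902 bases. Gp1bb itself was listed at 8.39 to 10.7 FPKM. For each of the other 9 septins at most 2.25% of the words were shared, and for Sept4, Sept8, Sept9 and Sept10 none were.

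In the Dnmt1 CKO cortex, Sept4 had 0.667 and Sept2 0.832 of the level in their controls, while the other 8 septins did not pass the test. Both are myelin septins, but Sept7 and Sept8, the other myelin septins, were among those that did not pass. With limma's test, 2 of 10 septins were called lower and 0 higher at an FDR of 10%. Over all 14115 rows tested 3.15% were called, 2.30% lower and 0.850% higher. Under an unadjusted p of 0.05 there were 2 of 10 septins and 2113 of the 14115 rows. The median log2 difference was −0.06 over the septins and −0.02 over all rows.

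Sept4 (chr11:87568903-87590539, plus strand, GRCm38) encodes a septin of oligodendrocytes and astrocytes that also has a part in sperm and in apoptosis. Its level was 32.1, 33.7 and 29.7 FPKM in Dnmt1 control replicates 1, 2 and 3 and 20.1, 21.9 and 21.5 FPKM in the Dnmt1 CKO mice. All 3 CKO values were below the lowest control, with no overlap. The log2 difference was −0.59 (SE 0.058, 95% interval −0.73 to −0.44, limma, adjusted p = 0.0080), a level of 0.667 of the controls.

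Sept2 (chr1:93478964-93510260, plus strand) is a widely made subunit that also serves in cytokinesis. The Dnmt1 controls had 21.9, 21.5 and 20.3 FPKM of it and the Dnmt1 CKO mice 18.1, 18.1 and 16.8 FPKM, again without overlap. Here the log2 difference was −0.27 (SE 0.046, 95% interval −0.38 to −0.15, limma, adjusted p = 0.059), a level of 0.832 of the controls. This call was near the threshold: it was lost at an FDR of 5%, with no filter on low values (adjusted p = 0.13) and in 5 of 6 fits that left out a library. These were the fits without control replicate 1 (adjusted p = 0.15), control replicate 2 (0.21), CKO replicate 1 (0.16), CKO replicate 2 (0.13) and CKO replicate 3 (0.16).

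The remaining myelin septins differed less. Sept7 (chr9:25252439-25308571, plus strand) had levels of 145, 141 and 134 FPKM in the Dnmt1 controls, and the CKO mice had 129, 131 and 135 FPKM. The ranges met at their ends, and the log2 difference was −0.09 (95% interval −0.19 to 0.0067, limma, adjusted p = 0.36). Sept8 (chr11:53519257-53549565, plus strand), which binds the vesicle protein synaptobrevin as well as taking part in myelin filaments, had 35.2, 37.6 and 35.7 FPKM in controls against 35.9, 33.5 and 35.2 FPKM in CKO mice. These ranges overlapped, with a log2 difference of −0.05 (95% interval −0.15 to 0.044, adjusted p = 0.61).

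The same levels can be read as ratios within a library, which are no independent measure. Sept4 over Sept8 was 0.880 ± 0.0422 (SD, n = 3) in Dnmt1 controls and 0.608 ± 0.0472 in Dnmt1 CKO mice, and Sept4 over Sept7 was 0.227 ± 0.00958 and 0.161 ± 0.00611. Sept2 over Sept7 went from 0.151 ± 0.000526 to 0.134 ± 0.00856, and Sept4 over Sept2 from 1.50 ± 0.0580 to 1.20 ± 0.0873. In none of these ratios, nor in Sept2 over Sept8 (0.587 ± 0.0300 and 0.507 ± 0.0311), did the groups overlap. The two-sided exact permutation test gave p = 0.1 for each of the 5 ratios, the smallest that 3 against 3 mice allow, so this design could not pass 0.05, and 0.2 after adjustment over the 10 ratio tests of both lines.

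Of the neuronal and general septins, none passed the test in the Dnmt1 line. Sept5 was at 283, 298 and 290 FPKM in controls and 283, 288 and 270 FPKM in CKO mice (log2 difference −0.05, 95% interval −0.17 to 0.064, limma, adjusted p = 0.68). Sept3 was at 71.4 to 77.2 FPKM in controls and 75.6 to 79.3 FPKM in CKO mice (log2 difference 0.04, adjusted p = 0.72). Both sets of ranges overlapped. Sept9 (chr11:117199661-117362325, plus strand) was at 15.9, 15.6 and 14.3 FPKM in controls and 16.5, 16.0 and 16.4 FPKM in CKO mice. All its CKO values were above the controls, but the log2 difference of 0.09 had a 95% interval of −0.019 to 0.21 and did not pass (limma, adjusted p = 0.42). Together with Sept2 and Sept4, 3 of 10 septins had groups that did not overlap, against 20.8% of all rows, with 2 lower (14.4% of all rows) and 1 higher (6.38%). Sept6, Sept10 and Sept11 had log2 differences of −0.08, 0.00047 and −0.06, with adjusted p from 0.36 to 1. The interval of Sept10, −0.36 to 0.36, was the widest, and its level the lowest, at 1.48 to 2.10 FPKM in these 6 libraries.

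**Figure D2:**
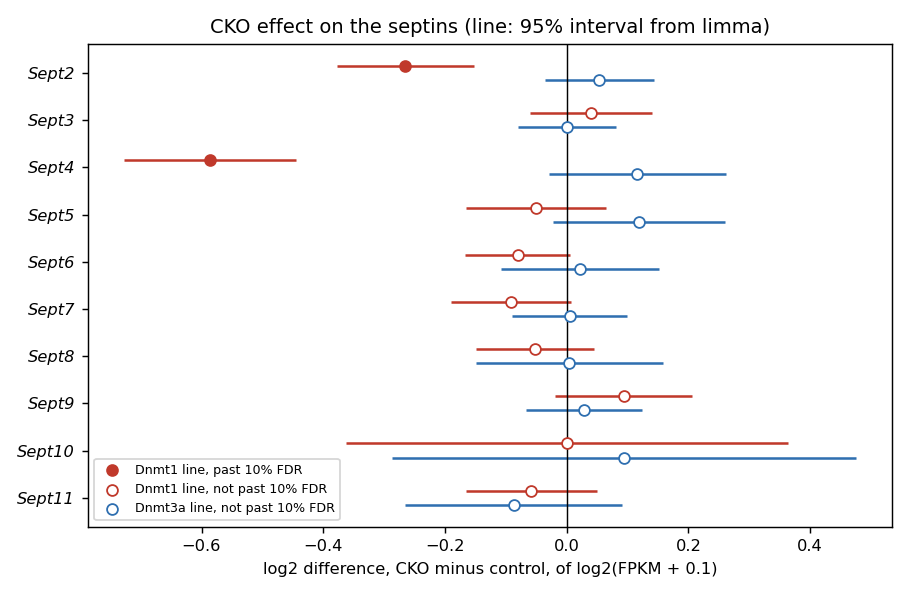
Log2 difference of CKO minus control (horizontal axis) for each septin in the Dnmt1 line and the Dnmt3a line, with bars for limma's 95% interval. Sept4 at −0.59 and Sept2 at −0.27 in the Dnmt1 line are the septins that passed an FDR of 10%, and in the Dnmt3a line none did.

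As shares of the summed septin FPKM, Sept4 made up 4.86% ± 0.196 (SD, n = 3) in Dnmt1 controls and 3.41% ± 0.153 in Dnmt1 CKO mice, and Sept2 3.25% ± 0.0986 and 2.84% ± 0.0896. The Sept3 subgroup took 13.8% ± 0.420 and 15.1% ± 0.207, with ranges of 13.4% to 14.3% and 14.8% to 15.2% that did not overlap. The Sept2 subgroup, which Sept5 dominates, held 52.5% ± 0.719 and 51.4% ± 0.962, and the Sept7 share (21.4% and 21.2%) and the Sept6 subgroup (12.2% and 12.3%) lay within each other's spread. In the Dnmt3a line the Sept7 share was 21.5% to 21.9% in controls and 20.6% to 21.0% in CKO mice, and that of the Sept2 subgroup 51.1% to 53.2% and 53.7% to 54.2%, both without overlap. Without the library labelled Dnmt3a control replicate 2, the mean differences of CKO minus control were −0.900 percentage points for Sept7 and 2.60 for the Sept2 subgroup. The Sept3 subgroup (13.4% to 14.6% and 12.8% to 13.8%) and the Sept6 subgroup (11.8% to 12.7% and 11.4% to 12.4%) overlapped there. No test was run on shares, and a share falls when another member, such as Sept5, rises.

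In the Dnmt3a line, no septin passed the test in either direction. Limma called 0 of 10 septins, against 0.0142% of all rows, and 0 septins were under an unadjusted p of 0.05, against 7.35% of all rows. Sept4 was at 36.5, 40.0 and 35.1 FPKM in Dnmt3a controls and 38.4, 42.2 and 40.1 FPKM in Dnmt3a CKO mice, with overlap (log2 difference 0.12, 95% interval −0.030 to 0.26, adjusted p = 0.70). Sept2 was at 20.3, 20.1 and 20.4 FPKM in controls and 20.8, 22.1 and 20.4 FPKM in CKO mice (log2 difference 0.05, 95% interval −0.036 to 0.14, adjusted p = 0.76). Sept7 lay at 134 to 144 FPKM in controls and 138 to 142 FPKM in CKO mice, with a difference of 0.0049 (95% interval −0.090 to 0.10), and Sept8 at 36.5 to 38.0 FPKM and 34.3 to 40.6 FPKM, with a difference of 0.0043 (95% interval −0.15 to 0.16).

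Sept5 was the septin whose groups did not overlap in the Dnmt3a line, 1 of 10 against 12.8% of all rows, where 7.33% were higher in this way and 5.43% lower. It was at 260, 292 and 284 FPKM in controls and 295, 299 and 313 FPKM in CKO mice, and its log2 difference of 0.12 (95% interval −0.023 to 0.26) did not pass (limma, adjusted p = 0.68). Gp1bb, whose exons overlap Sept5, was likewise above all its controls there, at 8.58 ± 0.243 and 9.96 ± 0.806 FPKM (SD, n = 3). In the same libraries the neuron list summed to 2024 to 2092 FPKM in controls and 2143 to 2179 FPKM in CKO mice and the astrocyte list to 875 to 901 FPKM and 939 to 1006 FPKM, neither with overlap. Of the neuron genes 8 of 9 and of the astrocyte genes 8 of 8 had values above 0 on the log2 scale, with medians of 0.06 and 0.11. Limma called 0 of either list, and 1 and 2 were under an unadjusted p of 0.05, against 7.35% of all rows. Their part in the Sept5 value was not tested. Without the library labelled Dnmt3a control replicate 2, still 0 septins were called, Sept5 had a log2 difference of 0.15 (adjusted p = 0.72), and Sept4 had a log2 difference of 0.17 (unadjusted p = 0.019, adjusted p = 0.72).

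The direct test of the difference between the lines called the same 2 septins. The CKO effect on Sept4 was lower in the Dnmt1 line than in the Dnmt3a line by a log2 difference of −0.70 (SE 0.088, 95% interval −0.89 to −0.51, limma interaction over 12 libraries, adjusted p = 0.0017). For Sept2 it was −0.32 (SE 0.063, 95% interval −0.46 to −0.18, adjusted p = 0.029). This was 2 of 10 septins, both lower, against 2.13% of all rows, 1.83% lower and 0.298% higher, and 3 of 10 septins were under an unadjusted p of 0.05, against 10.6% of all rows. Without the library labelled Dnmt3a control replicate 2, these values were −0.75 (adjusted p = 0.0019) and −0.31 (adjusted p = 0.076), so both calls were kept. Sept5 came to −0.17 (unadjusted p = 0.033, adjusted p = 0.41), and the other 7 septins had adjusted p from 0.61 to 0.95.

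Between the control groups of the lines no septin passed the test, and Sept4 was the one without overlap. Sept4 was lower in all 3 Dnmt1 controls (29.7 to 33.7 FPKM) than in all 3 Dnmt3a controls (35.1 to 40.0 FPKM), though neither group carried cre. The log2 difference was −0.22 (95% interval −0.36 to −0.087, unadjusted p = 0.0042), and it did not pass the adjustment (limma, adjusted p = 0.42). Without the library labelled Dnmt3a control replicate 2 it was −0.17 (adjusted p = 0.78). Limma called 0 of 10 septins and 0.00% of all rows here, and 1 of 10 septins was under an unadjusted p of 0.05, against 8.18% of all rows. It was also the 1 septin of 10 whose control groups did not overlap, against 12.6% of all rows, 3.98% lower and 8.59% higher in the Dnmt1 controls. Line, litter and handling cannot be told apart between the controls.

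The septins were next set beside lists of cell type markers in the same libraries. The 13 myelin sheath genes, among them the genes of the myelin proteins Mbp and Mag, summed to 1985 to 2308 FPKM in Dnmt1 controls and 585 to 682 FPKM in Dnmt1 CKO mice. All 13 were called lower there, against 2.30% of all rows. Their log2 differences ran from −2.45 to −1.29 with a median of −1.94, so Sept4 at −0.59 lay outside this range. Fewer cells of a type and less RNA per cell cannot be told apart in whole cortex. Between the control groups the same list was also lower in the Dnmt1 line, in 13 of 13 genes and with a median log2 difference of −0.34. Of these, 13 were under an unadjusted p of 0.05, against 8.18% of all rows, and 0 were called by limma. In the Dnmt3a line 0 of 13 were called, against 0.0142% of all rows. The median there was 0.05, with sums of 2524 to 3011 FPKM in controls and 2754 to 3140 FPKM in CKO mice. Without the library labelled Dnmt3a control replicate 2, the median between the controls was −0.29, with 13 of 13 genes lower and 10 under an unadjusted p of 0.05, and in the Dnmt3a line it was 0.12, with 0 called and 1 under that p. The part of the myelin genes in the Sept4 and Sept2 values was not tested.

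Other cell types moved less in the Dnmt1 line. Of 9 genes listed for oligodendrocyte progenitors 5 were called lower (Olig1, Olig2, Sox10, Gpr17 and Pdgfra, the last with a log2 difference of −0.30). The rest were not called: Cspg4 (−0.00062), Vcan (0.06), Pcdh15 (−0.07) and Lhfpl3 (−0.21). The list summed to 141 to 155 FPKM in controls and 90.2 to 98.1 FPKM in CKO mice. Olig1, Olig2 and Sox10 are not restricted to progenitors, so this sum does not stand for these cells alone. Gpr17 had means of 37.2 FPKM in Dnmt1 controls and 25.2 FPKM in Dnmt1 CKO mice. Olig1, the locus that carries cre, was at 46.5 ± 4.46 and 20.3 ± 1.81 FPKM (SD, n = 3). In the Dnmt3a line it was also lower in all CKO mice, at 47.4 ± 2.98 and 33.9 ± 4.33 FPKM. The log2 difference there was −0.49 (limma, unadjusted p = 0.0024, adjusted p = 0.66), or −0.45 (adjusted p = 0.72) without the library labelled Dnmt3a control replicate 2. The part of the cre allele in the Olig1 values was not tested. Of 8 astrocyte genes 1 was called, the filament gene Gfap, which was higher by a log2 difference of 0.45 (limma, adjusted p = 0.0065). With Gfap, 3 of 8 were under an unadjusted p of 0.05. Aqp4 (−0.28, limma, adjusted p = 0.14) and Gja1 (−0.11, adjusted p = 0.28) were the others, both lower. The astrocyte list had 4 of 8 genes below 0 on the log2 scale and summed to 868 to 900.0 FPKM and 862 to 880.3 FPKM. Of 9 neuron genes 0 were called and 1 was under an unadjusted p of 0.05, with sums of 2041 to 2207 and 2116 to 2188 FPKM. Of 6 microglia genes 1 was called higher (C1qa, 0.34, adjusted p = 0.013). Of 6 endothelial genes 0 were called and 3 were under an unadjusted p of 0.05. All 6 were below 0 on the log2 scale, with a median of −0.18. Their sums were 55.3 to 59.9 FPKM in controls and 47.0 to 52.5 FPKM in CKO mice, without overlap. The choroid plexus list, with 0 of 6 genes called and 0 under an unadjusted p of 0.05, ranged from 85.2 to 277 FPKM within these 6 libraries. No marker was at 0 in all libraries of a group.

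**Figure D3:**
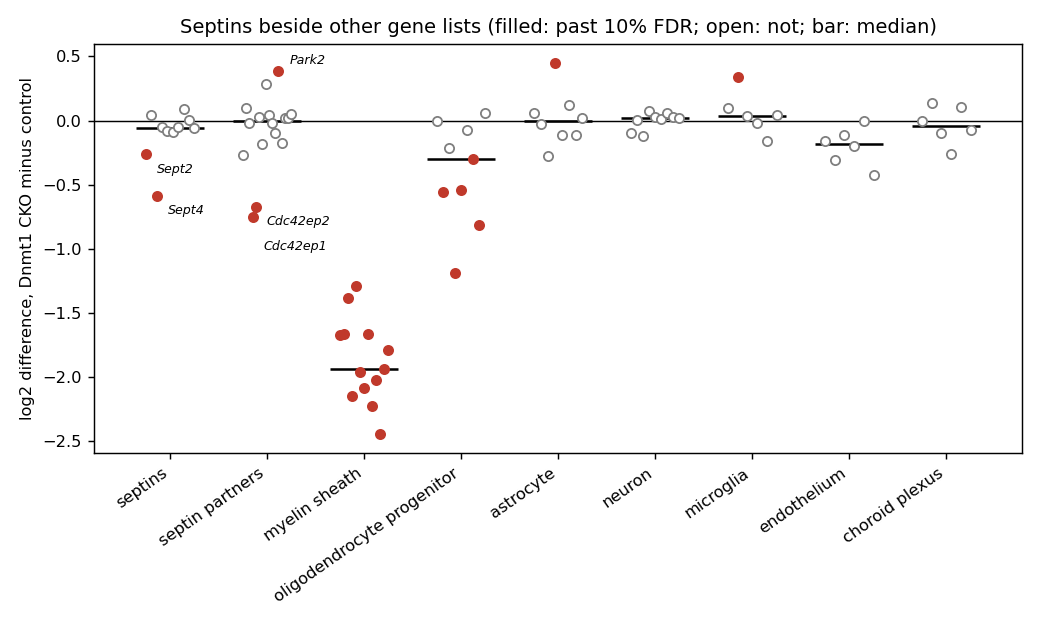
Log2 difference of Dnmt1 CKO minus Dnmt1 control (limma) for the 10 septins, 16 septin partners and the members of the marker lists, 1 point a gene. Medians are −0.06 for the septins, −1.94 for the myelin sheath genes and 0.02 for the neuron genes, and Sept4 lies above all 13 myelin sheath genes.

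**Figure D4:**
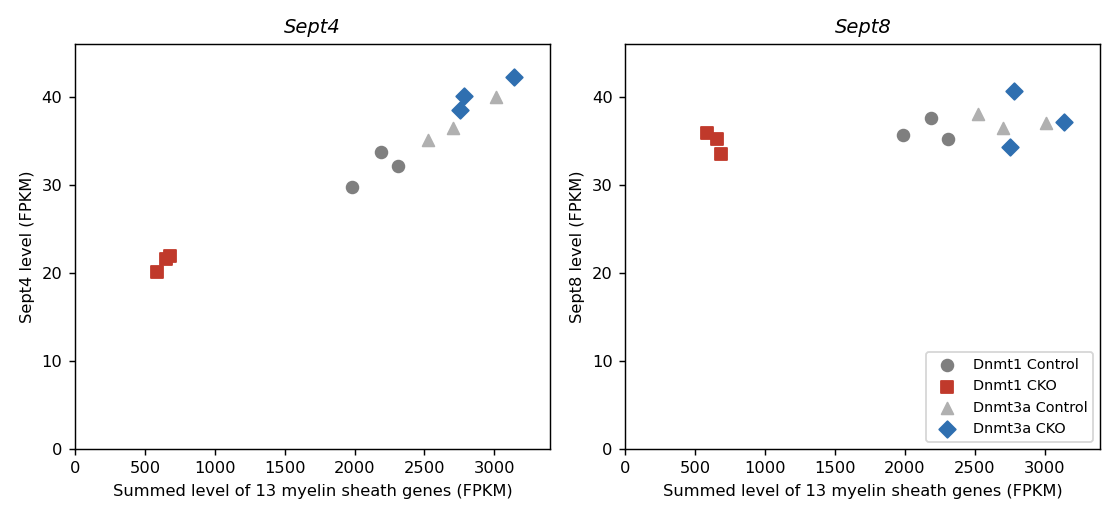
Levels of Sept4 and of Sept8 in FPKM (vertical axes) against the summed FPKM of the 13 myelin sheath genes (horizontal axes) in the 12 libraries, coloured by group. The 3 Dnmt1 CKO libraries stand apart at sums of 585 to 682 FPKM, with Sept4 at 20.1 to 21.9 FPKM and Sept8 at 33.5 to 35.9 FPKM, and no correlation is given because the samples fall into clusters.

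Genes were then ranked by how alike their profile over the 12 libraries was to that of each myelin septin. The measure was the root mean square distance of log2(FPKM + 0.1), each gene centred on its mean, among 8736 rows averaging 5 FPKM or more. Nearest to Sept4 were Plekhb1 (0.059), Sirt2 (0.083) and Tmbim1 (0.086), where the distance of Sept4 from a flat profile was 0.36. Sirt2, a deacetylase abundant in oligodendrocytes, went from 125 to 78.9 FPKM in the Dnmt1 line (log2 difference −0.66, limma, adjusted p = 0.017). Plekhb1 and Tmbim1 both had log2 differences of −0.61 (adjusted p = 0.0085 and 0.0072).

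Nearest to Sept2 were Sh3glb1 (0.026), Tpd52 (0.031) and Itgb1 (0.040), against 0.12 for a flat profile. Sh3glb1, which shapes membranes in autophagy, had a log2 difference of −0.26 in the Dnmt1 line (limma, adjusted p = 0.065), and the integrin subunit Itgb1 one of −0.22 (adjusted p = 0.14). Sept7 and Sept8 themselves moved little, by 0.055 and 0.070 from a flat profile, and among the 3 genes nearest to each were Fermt2 for Sept7 (0.023) and Mal2 for Sept8 (0.037). The profiles include the CKO libraries, so a gene that moves with genotype as Sept4 or Sept2 does ranks as near to it. The p-values of genes picked in this way are no independent support.

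Proteins known to bind septins or to be bound by them were followed as a list of 16 genes, all of which passed the filter. In the Dnmt1 line 2 were called lower and 1 higher, against 2.30% and 0.850% of all rows, and the median log2 difference was −0.00020. Under an unadjusted p of 0.05 there were 7 of the 16, against 2113 of all 14115 rows. The lower genes, Cdc42ep1 and Cdc42ep2, encode Borg proteins, which bind septins under control of the GTPase Cdc42. The other Borg genes of the list were not called. Their log2 differences were 0.03 for Cdc42ep3, −0.18 for Cdc42ep4 and 0.28 for Cdc42ep5 (limma, adjusted p = 0.96, 0.24 and 0.57). Cdc42ep1 was at 3.67, 3.38 and 3.03 FPKM in controls and 1.77, 2.16 and 1.92 FPKM in CKO mice, without overlap (log2 difference −0.76, SE 0.11, limma, adjusted p = 0.030). Cdc42ep2 was at 5.86, 6.64 and 6.58 FPKM and 3.60, 4.78 and 3.57 FPKM (log2 difference −0.67, SE 0.13, adjusted p = 0.077), also without overlap. Park2, the ubiquitin ligase parkin, of which Sept5 is a known substrate, was higher, at 2.43 ± 0.0633 and 3.22 ± 0.224 FPKM (SD, n = 3, log2 difference 0.39, SE 0.071, adjusted p = 0.069).

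The partner calls were often lost when a library was left out, while the log2 differences stayed at −0.83 to −0.69 for Cdc42ep1, −0.81 to −0.60 for Cdc42ep2 and 0.33 to 0.42 for Park2. Of the 3 calls, there were 0 left without control replicate 2, CKO replicate 1 or CKO replicate 3, and 1 left, Cdc42ep1, without control replicate 1 or 3 and at an FDR of 5%, while without CKO replicate 2 Cdc42ep1 and Cdc42ep2 were left. The difference between the lines was called for Cdc42ep2 (−0.78, limma, adjusted p = 0.019) and Cdc42ep1 (−0.57, adjusted p = 0.054), and for Park2 it did not pass (0.38, adjusted p = 0.30). At an FDR of 5%, and in 7 of the 12 fits that left out a library, Cdc42ep2 was the sole partner called. Without the library labelled Dnmt3a control replicate 2 the calls were Cdc42ep2 and Rtkn (−0.31, adjusted p = 0.048), and without Dnmt3a CKO replicate 2 they were Cdc42ep2 and Park2 (0.49, adjusted p = 0.063).

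Anln, the gene of anillin, which helps septins to assemble in myelin, did not pass. It was at 1.59, 1.51 and 1.67 FPKM in Dnmt1 controls and 1.32, 1.16 and 1.45 FPKM in CKO mice (log2 difference −0.27, 95% interval −0.50 to −0.030, limma, adjusted p = 0.28), and all CKO values were below the controls. In the Dnmt3a line it was higher in level, at 2.20 ± 0.200 FPKM in controls and 2.47 ± 0.409 FPKM in CKO mice (SD, n = 3), and the control groups differed by −0.44 on the log2 scale without passing (adjusted p = 0.42), or by −0.38 (adjusted p = 0.78) without the library labelled Dnmt3a control replicate 2. Rtkn, whose protein binds septins, was at 12.1 ± 0.607 and 10.7 ± 0.170 FPKM in the Dnmt1 line (log2 difference −0.18, adjusted p = 0.16). Stx1a, the syntaxin that Sept5 binds, was at 139 ± 10.4 and 143 ± 3.67 FPKM (log2 difference 0.05, adjusted p = 0.76). In the Dnmt3a line limma called 0 of 16 partners, against 0.0142% of all rows. Under an unadjusted p of 0.05 there was 1 partner, against 7.35% of all rows.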

How the data were processed

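RNA-seq libraries (polyA RNA, TruSeq) were made from cortices of 12 mice, 3 in each of 4 groups, which were taken from the sample labels. Reads had been aligned by the authors (TopHat, mm10), and the deposited table holds Cufflinks FPKM for each gene symbol, in 1 column per mouse with 0 columns unassigned. Versions are not given in the sources used here, nor are read counts, so the depth behind a value is unknown and no counting interval was computed. Between 120 and 136 rows with a mean above 5 FPKM were listed at 0 in a library, but no septin was.

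Here, 302 exact duplicate rows were removed of 23850. The 14115 rows (14075 symbols) that averaged 0.5 FPKM or more were put on the log2(FPKM + 0.1) scale, so fold changes of low genes are understated. CKO mice were compared with their own line's controls by limma 3.58.1 in R 4.3.3 (lmFit, eBayes with trend) over the 6 libraries of the line, with Benjamini-Hochberg adjustment over all rows and an FDR of 10%. The difference between the lines and the comparison of the controls used 1 model of 12 libraries. Ratios were compared by a two-sided exact permutation test. The alternatives were other pseudocounts, filters, eBayes settings, scalings, an Xist covariate, the replicate number as a block, summed symbols, an FDR of 5%, leaving out single libraries, and 1 model of all groups. Those for the septin partners and marker lists were added after seeing the data.

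The septins, the marker and partner lists and the tests were chosen with earlier results of these data known. The text names all 10 septins, the partners, the marker lists, the targeted genes and Olig1, and genes among the 3 nearest in profile to each of Sept2, Sept4, Sept7 and Sept8, of which some are not reported here. Stated examples within lists were chosen after their values were seen, and so was Gp1bb. Gene positions came from GENCODE M21 (GRCm38) and promoter windows from RefSeq (GRCm38.p6). Genes whose reads can come from others were marked by the 50-base words their transcripts share with another gene. Tables and plots were made with Python 3.11.15, numpy 2.4.6, pandas 2.3.3 and matplotlib 3.10.9.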

Additional observations from a re-analysis of the deposited data

Results flagged for a closer look

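The CKO effect differed between the lines for 2 septins, by the interaction test over 12 libraries. For Sept4 the log2 difference between the effects was −0.70 (limma, adjusted p = 0.0017), with all 3 Dnmt1 CKO mice below their controls and overlapping groups in the Dnmt3a line. For Sept2 it was −0.32 (limma, adjusted p = 0.029), with the same pattern of overlap. Groups of 3 were too small for the search for single outlying libraries.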

How the results depend on the processing

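Sept4 was called lower in the Dnmt1 line in all 20 alternatives (log2 difference −0.63 to −0.54, limma, adjusted p 0.00023 to 0.069) and in the difference between the lines in all 25 (−0.75 to −0.65, adjusted p 0.00054 to 0.0096). Sept2 kept its call in the difference between the lines in all 25 (−0.35 to −0.28, adjusted p 0.010 to 0.088), but in the Dnmt1 line it lost it in 7 of 20 (−0.30 to −0.23, adjusted p 0.0071 to 0.21). The count of septins past the threshold in the Dnmt1 line, 2, became 1 at an FDR of 5% and 1 with no filter on low values, and was 1 to 2 when each library was left out in turn, with 199 to 341 calls over all rows in those fits. A stricter threshold makes fewer calls by construction, the fits without a library rest on fewer mice, and the cause of the change with no filter was not tested. The count stayed 2 for the difference between the lines and 0 in the Dnmt3a line and between the controls.

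Replicate numbers did not pair the libraries: correlations of same-numbered deviations ran from −0.079 to 0.035, and the labels give no shared litter or batch for a number. With the replicate number as a block, the count of septins was 2 in the Dnmt1 line, 0 in the Dnmt3a line, 2 for the difference between the lines and 0 between the controls, while calls over all rows in the Dnmt1 line went from 444 to 162. The block left 0 septin partners called in the Dnmt1 line (adjusted p 0.16 for Cdc42ep1, 0.15 for Cdc42ep2 and 0.20 for Park2).

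Changes of sign occurred only in values that were not called. In the Dnmt1 line, Sept10 became −0.0013 with a pseudocount of 1 and −0.037 with the Xist covariate. With median-ratio and quantile scaling, values in the Dnmt3a line became −0.0079 and −0.044 for Sept3, −0.0035 and −0.058 for Sept7 and −0.0040 and −0.017 for Sept8. Between the controls they became −0.016 and −0.046 for Sept3 and −0.0016 and −0.0029 for Sept6. Leaving out a library gave ranges across 0 for Sept10 in the Dnmt1 line (−0.13 to 0.11). In the Dnmt3a line the ranges were −0.023 to 0.021 for Sept3, −0.024 to 0.057 for Sept6, −0.028 to 0.026 for Sept7, −0.058 to 0.063 for Sept8, −0.062 to 0.18 for Sept10 and −0.10 to 0.067 for Park2. For the difference between the lines they were −0.12 to 0.0050 for Sept8, −0.22 to 0.063 for Sept10 and −0.034 to 0.083 for Sept11. Between the controls they were −0.012 to 0.045 for Sept3, −0.034 to 0.030 for Sept7, −0.046 to 0.029 for Sept9, −0.032 to 0.21 for Sept10 and −0.020 to 0.089 for Sept11. The CKO minus control differences in subgroup shares moved by less than the SD between replicates when a library was left out, though in the Dnmt1 line 2 small ones changed sign without control replicate 1, to −0.070 percentage points for the Sept6 subgroup and 0.13 for Sept7. Scaling a library leaves shares as they are by construction.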
